A study of Bos taurus with 6 samples.

Results

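The simple-epithelium keratins KRT18, KRT8, KRT19 and KRT7 were followed in day-7 bovine blastocysts on the Affymetrix GeneChip Bovine Genome Array. They were chosen by gene symbol, through the platform's annotation. All 4 genes were present, each with 1 probe set, out of 9155 genes with a symbol and 24016 tested probe sets. The superovulated group, 3 arrays, held embryos that stayed until day 7 in the tract of Simmental heifers that had been synchronized, superovulated and artificially inseminated. The synchronized group, 3 arrays, held embryos from heifers treated in the same way, but at day 2 these embryos were flushed out as 2-cell embryos and placed endoscopically in unstimulated, merely synchronized recipients, where they stayed until day 7. Both groups therefore came from superovulated donors, and the flushing and transfer of the synchronized embryos cannot be told apart from the tract in which they grew. The sources used here do not give the number of blastocysts per array. No label ties the replicates to separate animals or collections, so p-values reflect the spread among these hybridizations alone, which may be technical.

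Keratins are the intermediate filaments of epithelia, and a filament is built only when an acidic type I keratin pairs with a basic type II keratin. KRT18 and KRT19 are type I, and KRT8 and KRT7 are type II; KRT8 with KRT18 is the pair that simple epithelia make earliest. The trophectoderm, the outer cell layer of the blastocyst that goes on to form the placenta, is the first epithelium of the embryo, and these keratins are widely used to mark it against the inner cell mass. The filaments are anchored at desmosomes and carry mechanical load across the layer.

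KRT18 was the keratin with a clear signal, and it was far higher in the superovulated group. Its probe set (gene identifier 506480) read 7.96, 8.11 and 7.74 log2 units in superovulated samples 1 to 3, against 3.55, 3.68 and 4.90 in synchronized samples 1 to 3. The groups did not overlap: the lowest superovulated array lay 2.84 above the highest synchronized one. The superovulated arrays stood within 0.37 of one another, whereas the synchronized arrays spanned 1.35, with array 3 above the other two. The means were 7.94 ± 0.19 (SD, n = 3) and 4.04 ± 0.74 (SD, n = 3). The difference, superovulated minus synchronized, was 3.89 with a standard error of 0.40 and a 95% interval of 2.87 to 4.92 on the log2 scale (limma, adjusted p = 0.0410 over all probe sets). On a linear scale that is 14.9-fold, with an interval of 7.30 to 30.3. Synchronized arrays 1 and 2 read below log2 4, a dim range in which GCRMA, the method behind the deposited values, compresses the signal, so the size of the fold is less certain than its interval says.

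Among all probe sets 0.716% passed the same test, 0.695% in the direction higher in the superovulated group, and 1 of the 4 keratins did so. Among the 1824 probe sets whose mean exceeded log2 4 in either group, a level well over the array medians, 7.57% passed in that direction, and KRT18 is among these. Of all 24016 probe sets 7 had a larger rise than KRT18, 4 of them past the threshold. A lack of overlap between the groups is by itself common in these data: 5.42% of all probe sets were higher without overlap and 7.89% lower, and 43.4% of those above log2 4 in either group were higher without overlap.

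The rank of KRT18 on each array, which no rescaling of that array alters, showed the same separation. On the superovulated arrays its signal exceeded 99.6%, 99.5% and 99.3% of the probe sets. On synchronized arrays 1 to 3 it exceeded 91.0%, 89.6% and 97.8%.

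**Figure D1:**
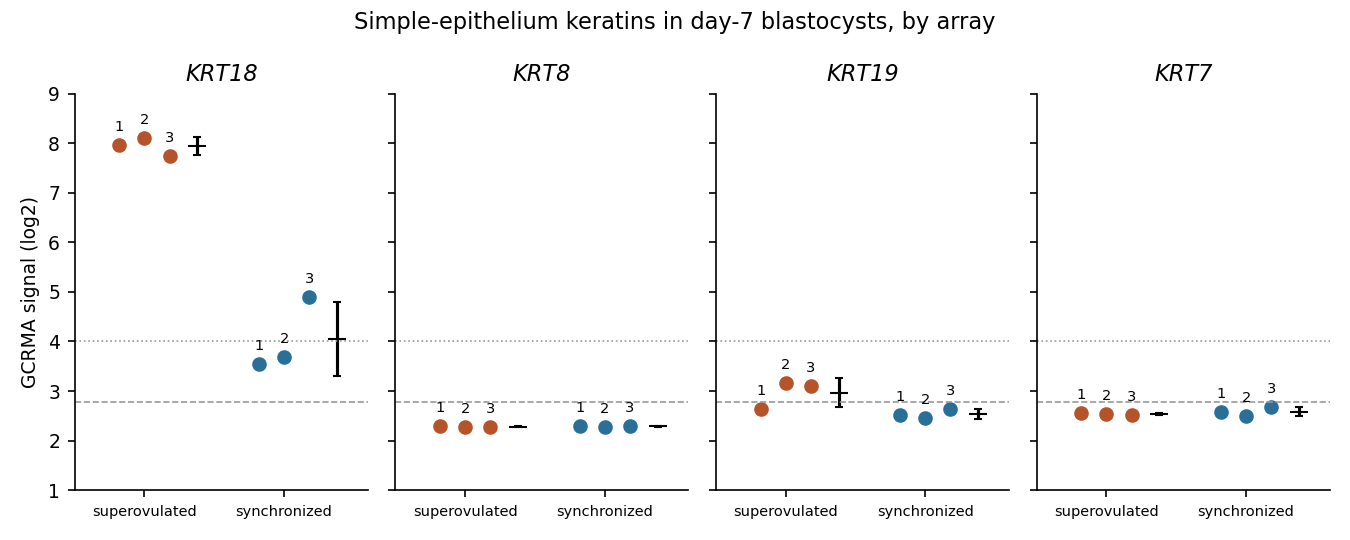
Signal (log2, vertical axis) of the probe sets of KRT18, KRT8, KRT19 and KRT7 on each of the 6 arrays; points carry the array number, bars to the right of them are mean ± SD, the dashed line is the mean of the array medians and the dotted line marks log2 4. KRT18 lies between 7.74 and 8.11 on the superovulated arrays and between 3.55 and 4.90 on the synchronized ones, while the other 3 keratins stay below log2 4 on all arrays.

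KRT8, the type II partner of KRT18, gave no usable signal on either group. Its probe set (gene identifier 281269) read 2.29, 2.28 and 2.27 in superovulated samples 1 to 3, against 2.29, 2.28 and 2.30 in synchronized samples 1 to 3. These values lay above only 4.40% to 4.91% of the probe sets on each array, and the array medians were 2.75 to 2.8. The difference was -0.01 (95% interval -0.05 to 0.03, limma, adjusted p = 0.741). Readings this low give no level of KRT8 messenger RNA, and whether KRT8 moved with KRT18 cannot be read from them.

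KRT8 is also the only member whose probe set name carries the suffix A1 in place of S1. No source used here explains the suffix, but across the array it went with dimmer probe sets: 528 of 9438 probe sets with an A suffix (5.59%) had a mean above log2 4 in either group, against 1294 of 14557 with an S suffix (8.89%). In the 423 transcript clusters that carried both kinds, the S probe set was above log2 4 in 11 and the A probe set in 3. The part of the suffix in the KRT8 reading was not tested.

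KRT19, a type I keratin of simple epithelia that lacks most of the tail domain, was near background throughout. Its probe set (gene identifier 514812) read 2.63, 3.16 and 3.11 in superovulated samples 1 to 3, against 2.51, 2.45 and 2.64 in synchronized samples 1 to 3. Superovulated arrays 2 and 3 were higher than every synchronized array, but superovulated array 1 lay 0.01 below synchronized array 3, so the groups overlapped. The means were 2.97 ± 0.29 and 2.53 ± 0.10 (SD, n = 3 each). The difference of 0.43 (95% interval 0.02 to 0.85) had an unadjusted p of 0.0432 in limma and did not pass over all probe sets (adjusted p = 0.636), and it turned to -0.19 with each array centred on the bright probe sets.

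KRT7, a type II keratin of ductal and glandular epithelia and of trophoblast, read 2.55, 2.54 and 2.52 in superovulated samples 1 to 3, against 2.58, 2.49 and 2.67 in synchronized samples 1 to 3 (gene identifier 535697). The superovulated values fell inside the synchronized range. The difference was -0.04 (95% interval -0.17 to 0.08, limma, adjusted p = 0.659). As with KRT8, the probe set stayed below the array median on every array.

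The members were also set against one another within each array. The gap between KRT18 and KRT8 was 5.47 to 5.83 on the superovulated arrays and 1.26 to 2.60 on the synchronized ones, a change of 3.90 between the groups. The corresponding change was 3.46 against KRT19 and 3.94 against KRT7. Each of these 3 gave p = 0.1 in an exact two-sided permutation test over arrays, the smallest that 3 arrays against 3 allow, and 0.15 after Benjamini-Hochberg adjustment over the 6 pairs of members. The gap between KRT19 and KRT7 changed by 0.48 (exact permutation p = 0.1, adjusted 0.15), between KRT8 and KRT19 by -0.44 (0.2, adjusted 0.24) and between KRT8 and KRT7 by 0.03 (0.7, adjusted 0.7). Since KRT8, KRT19 and KRT7 are background readings, the gaps to them restate the level of KRT18: they do not correct for differences in bright signal between arrays and say nothing of the balance between the keratins.

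The arrays differed in ways the groups do not explain. Superovulated arrays had 1457 to 1894 probe sets above log2 4 and synchronized arrays 973 to 1850, and correlations across probe sets were 0.928 to 0.974 within the superovulated group, 0.752 to 0.899 within the synchronized group and 0.758 to 0.892 between them. Synchronized array 2 had 1850 probe sets above log2 4, as many as the superovulated arrays, and there KRT18 read 3.68, which is 4.26 below the superovulated mean. Against synchronized arrays 1 and 3 the superovulated mean was 4.39 and 3.04 higher. In all 172 probe sets passed, 167 of them higher. With each array centred on the bright probe sets 647 passed, 281 higher and 366 lower. Dim probe sets then mainly carry the array shifts, so these latter counts are not reliable. That centring lowered every difference given here by 0.62. It turned the sign for KRT19, PPP1CC, FOS, EIF4B, the JUN probe set that differed by 0.09, and dim probe sets of COL1A2 and C3. KRT18, ANXA2, DAB2, EPCAM, EZR and LGALS3 stayed higher in the superovulated group.

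Control probe sets also moved with the groups. The 3' control probe set of GAPDH read 8.67, 8.80 and 9.14 in the superovulated samples, against 7.20, 8.35 and 8.22 in the synchronized samples, and the hybridization controls averaged 12.3 on each superovulated array and 12.8, 12.5 and 13.3 on synchronized arrays 1 to 3. The 5' control probe set of GAPDH lay between 2.60 and 3.03 on all arrays, so the transcript was read from its 3' end and not from its 5' end. The actin controls were at background at both ends, 2.61 to 3.03 at the 3' end and 2.69 to 2.77 at the 5' end, so neither gene gives a usable ratio of its ends. Where the keratin probes lie along their transcripts was not analysed here. The part of these differences in the KRT18 result was not tested.

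The call for KRT18 sat close to the threshold. Leaving out 1 array at a time, the difference stayed between 3.65 and 4.32 but passed only without synchronized array 3, which has the highest KRT18 reading of its group (adjusted p = 0.0120 by limma). Without superovulated arrays 1, 2 and 3 the adjusted p was 0.134, 0.159 and 0.130, and without synchronized arrays 1 and 2 it was 0.110 and 0.0908. With superovulated array 3 and synchronized array 2 both left out, the difference was 3.81 (adjusted p = 0.288). After a second quantile normalization it was 3.17 (adjusted p = 0.232). A fit of only the 1406 probe sets that averaged over log2 4 across all arrays gave 3.89 (limma adjusted p = 0.00439). A pass was common there: 441 of the 1406 passed, 413 of them higher. With each array centred on those probe sets the difference was 3.27 (limma adjusted p = 0.00722), and 258 passed, 208 of them higher.

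**Figure D2:**
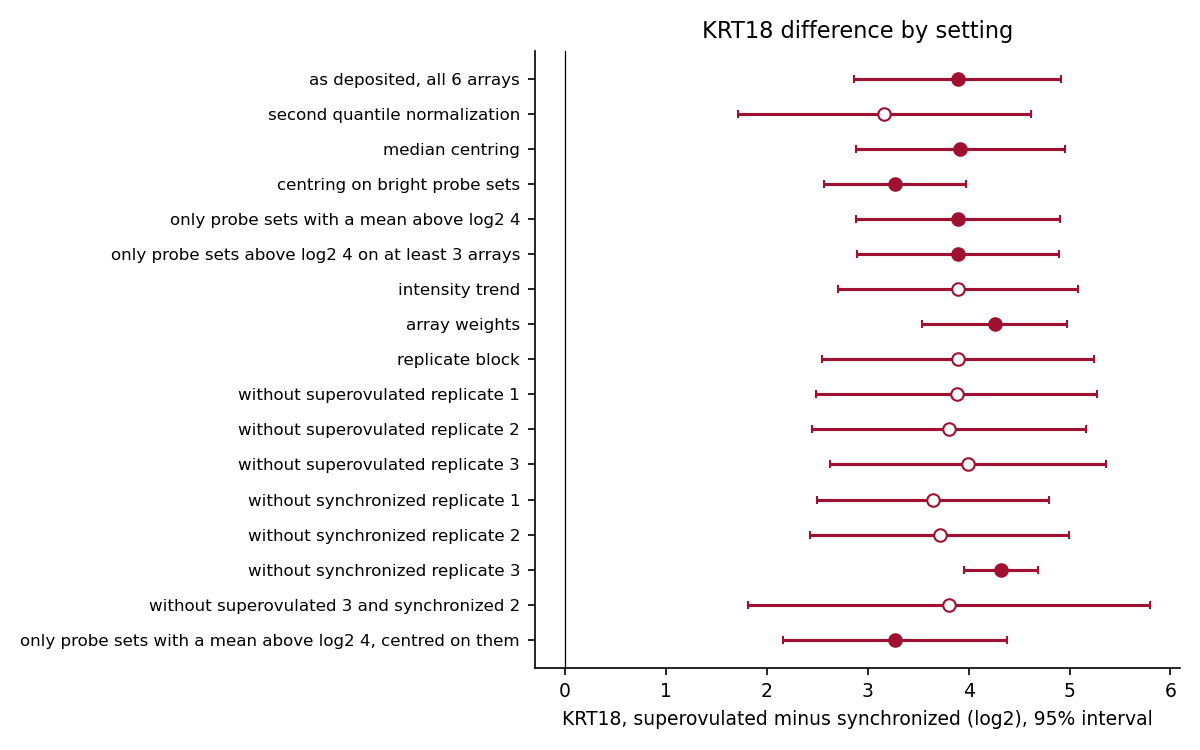
Difference of KRT18 between the groups (superovulated minus synchronized, log2, horizontal axis) under each setting of the analysis (vertical axis), with 95% intervals from limma; filled points have an adjusted p below 0.05 over the probe sets tested. All 17 estimates lie between 3.17 and 4.32, and 9 of the 16 alternatives do not pass. The pass under centring on bright probe sets over all probe sets is not read as support.

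The other keratins on the array were at background in both groups. The 22 probe sets of 14 further keratin genes, mostly of stratified epithelia and hair, read between 2.04 and 3.24 on the 6 arrays. Of them 0 passed the test, against 0.716% of all 24016 probe sets (median difference -0.01, against -0.02 over all). KRT5, a type II keratin of basal cells, had the largest difference. On the probe set that moved more it read 2.59, 2.55 and 3.15 in the superovulated samples, against 2.04, 2.22 and 2.10 in the synchronized samples, a difference of 0.64 (adjusted p = 0.450 by limma) without overlap between the groups. The other KRT5 probe set differed by -0.18 (adjusted p = 0.636). A probe set of KRT15 also lacked overlap, with a difference of -0.09. KRT5 and KRT15 were chosen after their values were seen.

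**Figure D3:**
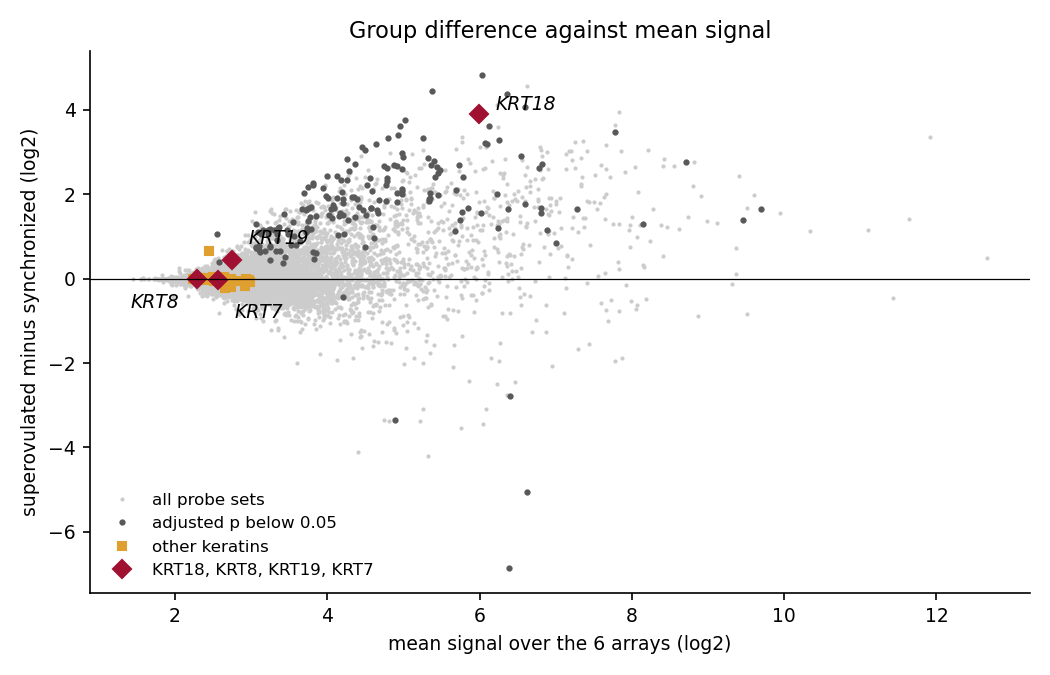
Difference between the groups (superovulated minus synchronized, log2, vertical axis) against the mean signal over the 6 arrays (log2, horizontal axis) for all 24016 probe sets in grey, with the 172 that passed in dark grey, the 4 members as diamonds and the 22 probe sets of other keratins as squares. KRT18 stands at a difference of 3.89, while the remaining keratins gather at the dim end around 0.

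None of the measured genomic neighbours of KRT18 passed the test. In the ARS-UCD2.0 gene table KRT18 and KRT8 are adjacent protein-coding genes on chromosome 5, beside the cluster of type II keratins, while KRT7 lies farther along the same chromosome and KRT19 in the type I cluster on chromosome 19. Of the 10 protein-coding genes nearest to KRT18, 5 on each side, 9 were measured and 0 passed. Over all probe sets 0.716% passed, so 0 calls among so few genes do not set them apart. EIF4B, a translation initiation factor gene named for its place next to KRT18, differed by 0.36 (4.29 against 3.93, limma adjusted p = 0.636). The other 8 were at background and differed by -0.22 to -0.01.

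Of the measured genes whose proteins hold and modify keratin filaments, most had means below log2 4 in both groups. Over all probe sets 0.716% passed and 28.1% differed upwards. The list of desmosome and plakin anchors had 12 measured genes of 22, of which 0 passed and 4 differed upwards (median -0.02). DSP, DSG2, PLEC, PPL, EVPL and EPPK1 were not among those measured. MACF1, a plakin that links actin and microtubules, was the member above log2 4, at 4.88, 5.29 and 5.70 against 3.48, 4.93 and 3.79 (difference 1.22, limma adjusted p = 0.636). The list of keratin-binding and keratin-modifying proteins had 24 measured genes of 30, of which 0 passed (median 0.06) and 15 stayed below log2 4 on all arrays. CASP6, a caspase that cleaves KRT18 during apoptosis, read 6.48, 6.10 and 6.02 against 4.87, 5.96 and 4.14, a difference of 1.21 (limma adjusted p = 0.636). CASP6 was higher on every superovulated array than on any synchronized one, whereas the MACF1 groups overlapped. Of all probe sets above log2 4 in either group 43.4% were higher without overlap. The phosphatase subunit gene PPP1CC differed by 0.53 and the 14-3-3 gene YWHAQ by -0.22, each with overlap. Of the 10 measured genes of 15 for other intermediate filament proteins 0 passed, and all 10 had means below log2 4 in both groups (median -0.12).

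Among the trophectoderm products ANXA2 and DAB2 rose. Of 23 measured genes of 28, 2 passed, both higher, 9 were higher without overlap and 2 lower without overlap (median 0.06). Over all probe sets 0.695% passed as higher, 5.42% were higher without overlap and 7.89% lower. Of the 8 listed genes above log2 4 in either group 7 were higher without overlap, against 43.4% of all such probe sets. ANXA2, an annexin that binds membranes and actin, read 4.86, 5.0 and 5.02 in the superovulated samples, against 2.85, 2.88 and 3.44 in the synchronized samples, a rise of 1.90 (adjusted p = 0.0342 by limma). DAB2, an endocytic adaptor of extraembryonic epithelia that the primitive endoderm list holds too, read 4.87, 5.02 and 4.85 against 2.32, 2.66 and 3.14, a rise of 2.21 (adjusted p = 0.0387 by limma). The other DAB2 probe set read near background and differed by -0.13. In both genes all 3 synchronized arrays read below log2 4. Array 3 was the highest of them, as for KRT18, which read 4.90 there. ANXA2 and DAB2 passed without synchronized array 3 and in none of the other fits that left out 1 array.

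Some of the brightest genes of that list were higher in the superovulated group without passing. Over the whole list 12 of 23 differences were above 0, against 28.1% of all probe sets. Of its 8 genes above log2 4 in either group 7 were above 0, against 70.6% of all such probe sets. The direction of a bright gene alone therefore does not set it apart. EPCAM, an adhesion molecule of epithelia, read 7.12, 7.83 and 7.54 against 4.64, 5.50 and 5.22 (difference 2.38, limma adjusted p = 0.0576). EZR, which ties the apical membrane to actin, read 6.53, 7.06 and 6.41 against 4.66, 4.03 and 4.77 (difference 2.18, limma adjusted p = 0.0602). LGALS3, a galectin, differed by 1.84 (limma adjusted p = 0.212). All 3 were without overlap between the groups and above log2 4 on all 6 arrays. ATP1B1, the sodium pump subunit, went another way, at 3.93, 3.91 and 5.40 against 3.83, 5.60 and 4.78 (difference -0.32, limma adjusted p = 0.772): its highest readings were on superovulated array 3 and synchronized array 2, where KRT18 had no high reading within its group.

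**Figure D4:**
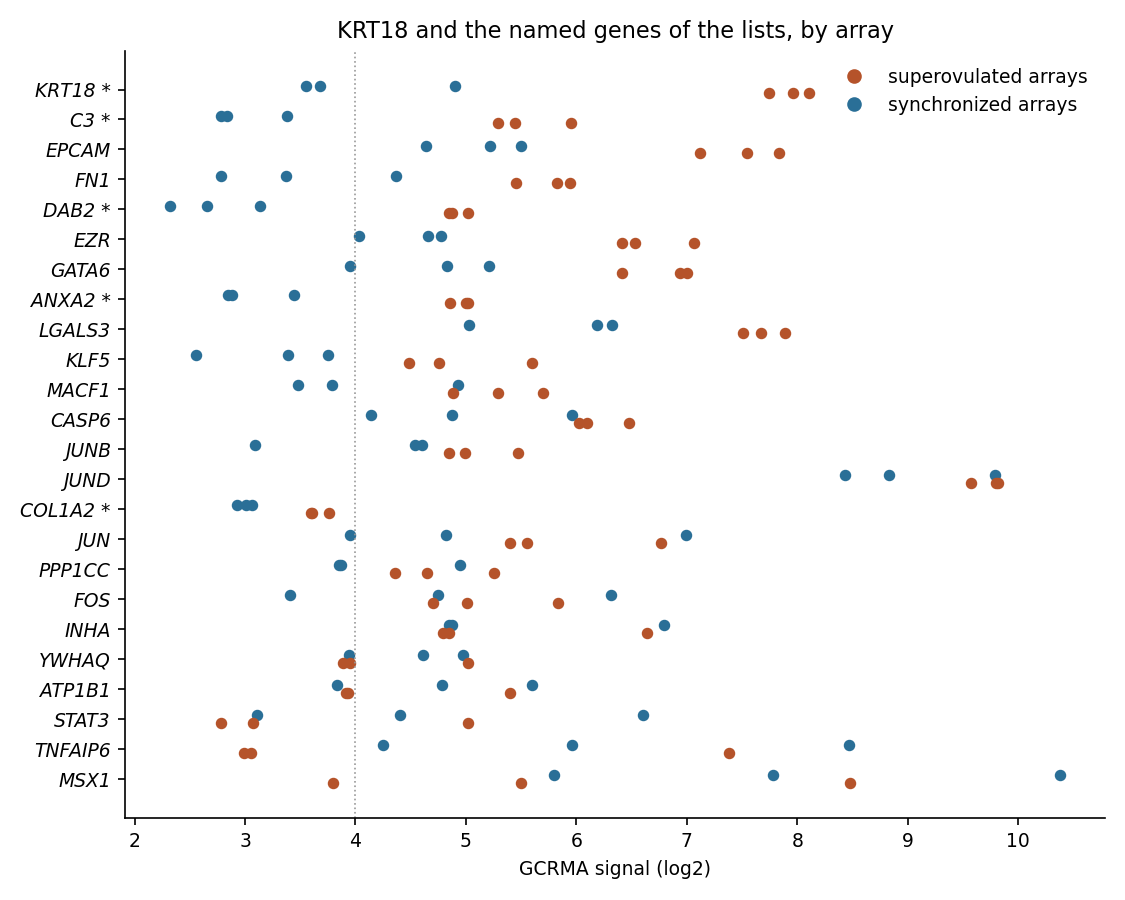
Signal (log2, horizontal axis) on each superovulated and synchronized array for KRT18 and the named genes of the gene lists (vertical axis, ordered by group difference); an asterisk marks an adjusted p below 0.05 and the dotted line log2 4. KRT18 has the widest gap between the groups of the genes plotted, 2.84, and genes such as ATP1B1 and INHA overlap.

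Transcription factors of the trophectoderm and of keratin genes gave 0 calls. Since 0.716% of all probe sets passed, 0 calls in lists this short do not set these genes apart. Of 12 measured genes of 23 in the trophectoderm list (median -0.02), KLF5 was the one above log2 4. KLF5, a zinc finger factor needed for the trophectoderm in mice, read 5.60, 4.76 and 4.48 in the superovulated samples, against 2.56, 3.39 and 3.75 in the synchronized samples, a difference of 1.71 without overlap (limma adjusted p = 0.367), with -0.01 on its dim second probe set. CDX2 and GATA3 were not analysed here, since the annotation used carries no probe set under those symbols. The AP-1, ETS and SP family list had 13 measured genes of 17, 0 calls and a median of 0.04. JUND, an AP-1 subunit, was the brightest at 9.73 ± 0.14 against 9.02 ± 0.70 (SD, n = 3 each; difference 0.71, limma adjusted p = 0.636). On their brightest probe sets JUN differed by 0.65 and FOS by 0.36, both with overlap and both highest on synchronized array 2. Another JUN probe set, above log2 4 on all 6 arrays, differed by 0.09 and was highest on superovulated array 2. JUNB differed by 1.03 without overlap (limma adjusted p = 0.636). As for KLF5, that was common: 43.4% of all probe sets above log2 4 in either group were higher without overlap.

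Markers of other cells were read in the same way, since oviduct, uterus and granulosa epithelia also make simple keratins. The oviduct and uterus list had 12 measured genes of 18, and its mean was 2.90 to 3.25 on the superovulated arrays and 2.94 to 3.20 on the synchronized ones; 10 of the 12 stayed below log2 4 on all arrays. OVGP1, the gene of an oviduct-specific glycoprotein, averaged 2.20 in the superovulated and 2.23 in the synchronized group, near background. It is named outside the rule for named genes, as an oviduct marker, and does not speak for the uterus. C3, which encodes a complement component, rose on 1 probe set of 3, by 2.56 (5.29, 5.95 and 5.44 against 2.78, 2.84 and 3.38, limma adjusted p = 0.0373). The other C3 probe sets, near background, differed by -0.19 and 0.01. The homeobox gene MSX1 differed by -2.06 with overlap. The cumulus and granulosa list, 16 measured genes of 18, had a mean of 3.12 to 3.56 against 3.31 to 3.85, with the matrix gene TNFAIP6 at -1.75 and INHA at -0.08, both with overlap. COL1A2, a collagen gene that this list and the stroma list hold, rose by 0.66 from 3.0 to 3.66, both below log2 4 (limma adjusted p = 0.0316), and differed by 0.04 with centring on the bright probe sets. Without that centring its other probe set, near background, also differed by 0.04 (limma adjusted p = 0.776). Of 19 blood and immune genes 0 passed and all 19 stayed below log2 4 on all arrays, at a mean of 2.67 to 2.75 against 2.70 to 2.86. Of all probe sets 0.716% passed, and 21135 of 24016 stayed below log2 4 on all arrays. The stroma list, 13 measured genes of 15, averaged 3.03 to 3.04 against 3.10 to 3.18. The part of C3-bearing cells in the KRT18 result was not tested.

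Markers of the other lineages of the blastocyst gave few readings. The inner cell mass list had 3 measured genes of 15 and 0 calls. STAT3, which many cell types use, was the 1 gene above log2 4 (difference -1.08 with overlap, limma adjusted p = 0.644). The other 2, POU5F1 and SOX2, stayed below log2 4 on all arrays. Of these, 1 was higher in the superovulated group without overlap, as were 5.42% of all probe sets. The primitive endoderm list had 13 measured genes of 17, 1 call, DAB2, and a median of -0.03. Of the 13, 6 differed upwards, 3 were higher without overlap and 2 lower without overlap. The shares over all probe sets were 28.1%, 5.42% and 7.89%. GATA6, a factor of the primitive endoderm, differed by 2.12 (limma adjusted p = 0.141) and the matrix gene FN1 by 2.23 (limma adjusted p = 0.182), both without overlap. The other FN1 probe set, near background, differed by -0.06. Of all probe sets above log2 4 in either group 43.4% were higher without overlap. Fewer trophectoderm cells and less KRT18 messenger RNA per cell cannot be told apart in these samples.

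The profiles most like that of KRT18 over the 6 arrays belonged to genes of varied function. Among 1237 probe sets with 1 symbol and a mean above log2 4 in either group, likeness was the root mean square distance between centred log2 profiles. The closest was HSPA14, a ribosome-associated chaperone gene (distance 0.17, Pearson r = 0.997), with 8.72, 8.69 and 8.47 in the superovulated samples, against 3.98, 4.47 and 5.26 in the synchronized samples. The others were the acetyltransferase gene NAA40 (0.23, r = 0.999), the repressor gene ZBTB18 (0.28, r = 0.997), the ribonucleoprotein gene HNRNPUL1 (0.33, r = 0.997) and CPSF3, the endonuclease of messenger RNA 3' processing (0.34, r = 0.988). Each correlation is over 6 arrays that fall into separate groups, and the arrays also share their hybridization and normalization. In all 5 genes synchronized array 3 had the highest reading of its group, as it had for KRT18. The genes were chosen by likeness over the same 6 arrays, so this shared order is no separate result.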

How the data were processed

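Total RNA of day-7 blastocysts was amplified, labelled with biotin and hybridized, 1 sample per array, per the labels' protocols. The authors deposited 1 log2 signal per probe set and array, made with GCRMA, per the submitters' processing notes; its version and whether the 6 arrays were normalized together are not given in the sources used here. Scanner files, detection calls and probe sequences were not used here.

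After 112 control probe sets were set aside, 24016 were fitted with limma 3.58.1 in R 4.3.3 (lmFit, eBayes, group as the only term), as superovulated minus synchronized, two-sided, with Benjamini-Hochberg adjustment over all of them; a call needed an adjusted p below 0.05. The procedure was tested on simulated data. Precision is limited by 3 arrays per group. Symbols came from the platform annotation (13292 probe sets with 1 symbol, 86 with several, 10638 with none).

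The members and the 12 gene lists were chosen with earlier results of these data known. For a listed gene with several probe sets the brightest on average was taken; 165 of 235 listed genes were measured, leaving out the 4 members. Named genes were every member, other keratins and listed genes with a call, up to 4 per list with the highest mean among those above log2 4 in either group, and the 5 profiles nearest to KRT18; the text says where a gene is named outside this rule. Exact permutation tests used scipy 1.17.1.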

Additional observations from a re-analysis of the deposited data

How the results depend on the processing

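KRT18 was higher in the superovulated group under all 16 alternatives, with differences of 3.17 to 4.32, and passed under 7 of them. It did not pass after a second quantile normalization (3.17), with an intensity trend (3.89, adjusted p = 0.0608), with the replicate number as a block (3.89, adjusted p = 0.232) or without superovulated array 3 and synchronized array 2 together (3.81). Leaving out 1 array gave 3.65 to 4.32. The count of keratin members called, 1 in the principal fit, was 0 under these 4 settings, and 0 to 1 when 1 array was left out. The near-background members changed sign by small amounts: KRT8 to 0.00278 after quantile normalization and 0.0133 with median centring, KRT19 to -0.19 with centring on bright probe sets, and KRT7 to 0.00167 without synchronized array 3 (-0.088 to 0.00167 with 1 array left out). Centring on bright probe sets shifts every probe set of an array by the same amount, by construction. In that fit of all probe sets KRT18, KRT8, KRT19 and KRT7 had the same standard error, 0.358, because dim probe sets mainly carry the array shifts. Its p-values and call counts, with the pass of KRT18 among them, are therefore not read as support.

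Over all probe sets the 172 calls became 28 after quantile normalization, 647 with centring on bright probe sets, 441 among those with a mean above log2 4 and 548 among those above log2 4 on at least 3 arrays (fewer tested), 50 with an intensity trend, 515 with array weights, 1 without superovulated array 3 and synchronized array 2, and 26 to 137 with 1 array left out. The 4 listed genes called (ANXA2, DAB2, C3 and COL1A2) became 0 after quantile normalization, with an intensity trend, with the replicate block or without both arrays, and the counts were 12 with centring on bright probe sets, 10 and 11 under the filters, 11 with array weights and 0 to 2 with 1 array left out. With any probe set of a gene the count stayed at 4. The settings restricted to bright probe sets and centred on them were chosen after seeing the data, and gave 258 calls, 208 of them higher. Otherwise the causes were not tested.

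No label says whether the replicate numbers pair the arrays. Deviations from the group means correlated at 0.542, -0.399 and -0.405 for same-numbered arrays, and superovulated array 3 went with synchronized array 2 (0.688). These 2 arrays had the most probe sets above log2 4 in their groups, 1894 and 1850. Deviations within 3 arrays also constrain one another, so the correlations cannot decide whether same-numbered arrays share a collection. With the replicate block limma gave 0 calls, against 1382 probe sets at an unadjusted p under 0.05. Signal over background limits KRT8, KRT19 and KRT7, which stayed below log2 4 on all 6 arrays.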
